A study of Mus musculus with 12 samples.

Results

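The genes of 9 chemokine receptors were followed in macrophages sorted from mouse pancreatic tumours, namely Ccr1, Ccr2, Ccr7, Ccr9, Ccr10, Cx3cr1, Cxcr2, Cxcr4 and Cxcr6. They were taken by name from the arrays' annotation, which gave 13 probes for the 9 genes, among 39429 probes and 20370 features tested in all. YFP+ macrophages (6 samples) were compared with YFP− macrophages (6 samples), where YFP is a yellow fluorescent protein. Both groups came from C57/B6 female mice of 8 to 10 weeks that carried implanted tumours, and the labels leave the genotype as not provided. The design text names wild-type mice, KPC mice and mice with FLT3-CRE and LSL-YFP, in which a Cre recombinase driven by Flt3, a gene active in blood progenitors, removes a stop ahead of the YFP gene. Which of these mice gave the 12 samples is not stated in the labels. Cells were sorted straight into lysis buffer, and their amplified, Cy5-labelled cDNA was read on single-colour Agilent arrays. Tumour numbers from 24452 to 24457 each occur once in either group and are called replicates 1 to 6 here. The labels do not say whether different numbers are different animals, so every p-value measures only the spread between these samples.

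Chemokine receptors are membrane proteins that pass through the membrane repeatedly and signal through inhibitory G proteins when a small secreted chemokine binds them, which steers the cell along the chemokine gradient. In the monocyte and macrophage lineage Ccr2 is known for carrying monocytes out of the bone marrow, Ccr1 for the response to inflammatory chemokines, Cx3cr1 for the binding of fractalkine and Cxcr4 for retention by Cxcl12. Ccr7 guides dendritic cells and lymphocytes to lymph nodes, Cxcr2 is the main chemokine receptor of neutrophils, and Cxcr6, Ccr9 and Ccr10 are best known from lymphocytes.

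Levels are given as the log2 of the processed signal relative to each array's 75th percentile over probes, so 0 is a signal equal to that percentile and −1 is a signal at 50% of it. Since probes differ in brightness, no receptor's level is set against another's. Differences are YFP+ minus YFP− on the same log2 scale, from limma over all 20370 features, with the standard error (SE), the 95% interval and the p-value after Benjamini-Hochberg adjustment. A call needed an adjusted p under 0.05.

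Ccr1, Ccr2, Ccr7, Ccr10, Cxcr2 and Cxcr4 had 1 probe each (6 genes), Ccr9 and Cxcr6 had 2, and Cx3cr1 had 3. The 60-base probes sit at single positions of the mm9 build, and the array's annotation, used here without a genome, does not say in which exon or untranslated stretch. The sequences printed are the first 30 bases of the probes on which the comparison of probes, or the 3 receptors with the smallest p, turns. Capitals mark the bases that the overlapping probes of a gene share within the stretch printed.
Cxcr6 probe 1, chr9:123720719-123720778, plus strand: ACAGAGCTTAAGACTTTAACaaatacaaga
Cxcr6 probe 2, chr9:123720709-123720768, plus strand: aatgtataaaACAGAGCTTAAGACTTTAAC
Cx3cr1 probe 1, chr9:119957811-119957870, minus strand: cgtgcCTAGAGTGTGTCTATCCCACTTGTA
Cx3cr1 probe 2, chr9:119957806-119957865, minus strand: CTAGAGTGTGTCTATCCCACTTGTAattct
Cx3cr1 probe 3, chr9:119959018-119959077, minus strand: caagaatgtcttcatgcattcactgactcc
Ccr9 probe 1, chr9:123690334-123690393, plus strand: caggcaagaggcacttgctgcaggttctcc
Ccr9 probe 2, chr9:123680935-123680994, plus strand: ctcagatcctctttaagagtgttatatagt
Cxcr2 probe, chr1:74206886-74206945, plus strand: aagggtggggagttcgtgtagaagacacag
Ccr10 probe, chr11:101034312-101034371, minus strand: ttggatcccttctaaagtcctgctgtgcaa
The Cxcr6 probes are shifted by 10 bases and share 50 of 60, and Cx3cr1 probes 1 and 2 are shifted by 5 bases and share 55. Such a pair reads nearly the same stretch of transcript and is no independent measurement. The remaining receptors lie on chromosome 9 (Ccr1 at chr9:123877790-123877849, minus strand, and Ccr2 at chr9:124022948-124023007, plus strand), chromosome 11 (Ccr7 at chr11:99005551-99005610, minus strand) and chromosome 1 (Cxcr4 at chr1:130485079-130485138, minus strand).

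The arrays were read on 3 slides, each scanned on its own and each holding 2 YFP+ and 2 YFP− arrays. The 75th percentile of the processed signal over all spots but controls was 3643 ± 280 in YFP+ arrays and 2631 ± 427 in YFP− arrays (SD, n = 6 each, exact two-sided permutation p = 0.0043). The scaling removes the same percentile taken over probes. The share of these spots well above background was 64.9% ± 0.92 in YFP+ arrays and 63.4% ± 1.18 in YFP− arrays (SD, n = 6 each, exact two-sided permutation p = 0.030). Of the 12 macrophage markers, among them C1qc, Itgam and Mrc1, all 12 were tested and none was called (0 of 12). Their differences were negative for 11 and positive for 1, with a median of −0.13 beside −0.03 over all features. The summed signal was 189 to 314 times the 75th percentile in YFP+ arrays and 214 to 354 times in YFP− arrays. Epithelial markers were lower in YFP+ cells, with 4 of 9 tested genes called, among them Krt8, Krt18 and Muc1, and summed signals of 5.01 to 11.46 in YFP+ arrays and 15.6 to 42.1 in YFP− arrays. Fibroblast markers were lower as well, with 7 of 11 called, among them Col3a1, Postn and Mfap5, and sums of 21.9 to 41.1 in YFP+ arrays and 59.1 to 141 in YFP− arrays. In bulk samples like these, fewer cells of a type and less RNA per cell cannot be told apart.

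None of the 9 receptors passed the test between YFP+ and YFP− macrophages (0 of 9), against 1.75% of all tested features (356, of which 68 were higher and 288 lower in YFP+ cells, 0.334% and 1.41%). Without adjustment 3 of the 9 had a p under 0.05, namely Cxcr6, Cxcr2 and Ccr10, all with more signal in YFP+ cells, against 11.2% of all features in either direction and 3.73% in that direction. The difference was positive for 8 receptors and negative for Cxcr4, against 47.2% of all features with a positive difference, and the median over the 9 was 0.66 beside −0.03 over all features. The groups overlapped in every one of the 9, where 0.427% of all features had every YFP+ array above every YFP− array and 1.45% the reverse. Well above background on all 12 arrays were 6 receptors (Ccr1, Ccr2, Ccr7, Cx3cr1, Cxcr2 and Cxcr4), and 3 were dim, Ccr9, Ccr10 and Cxcr6.

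**Figure D1:**
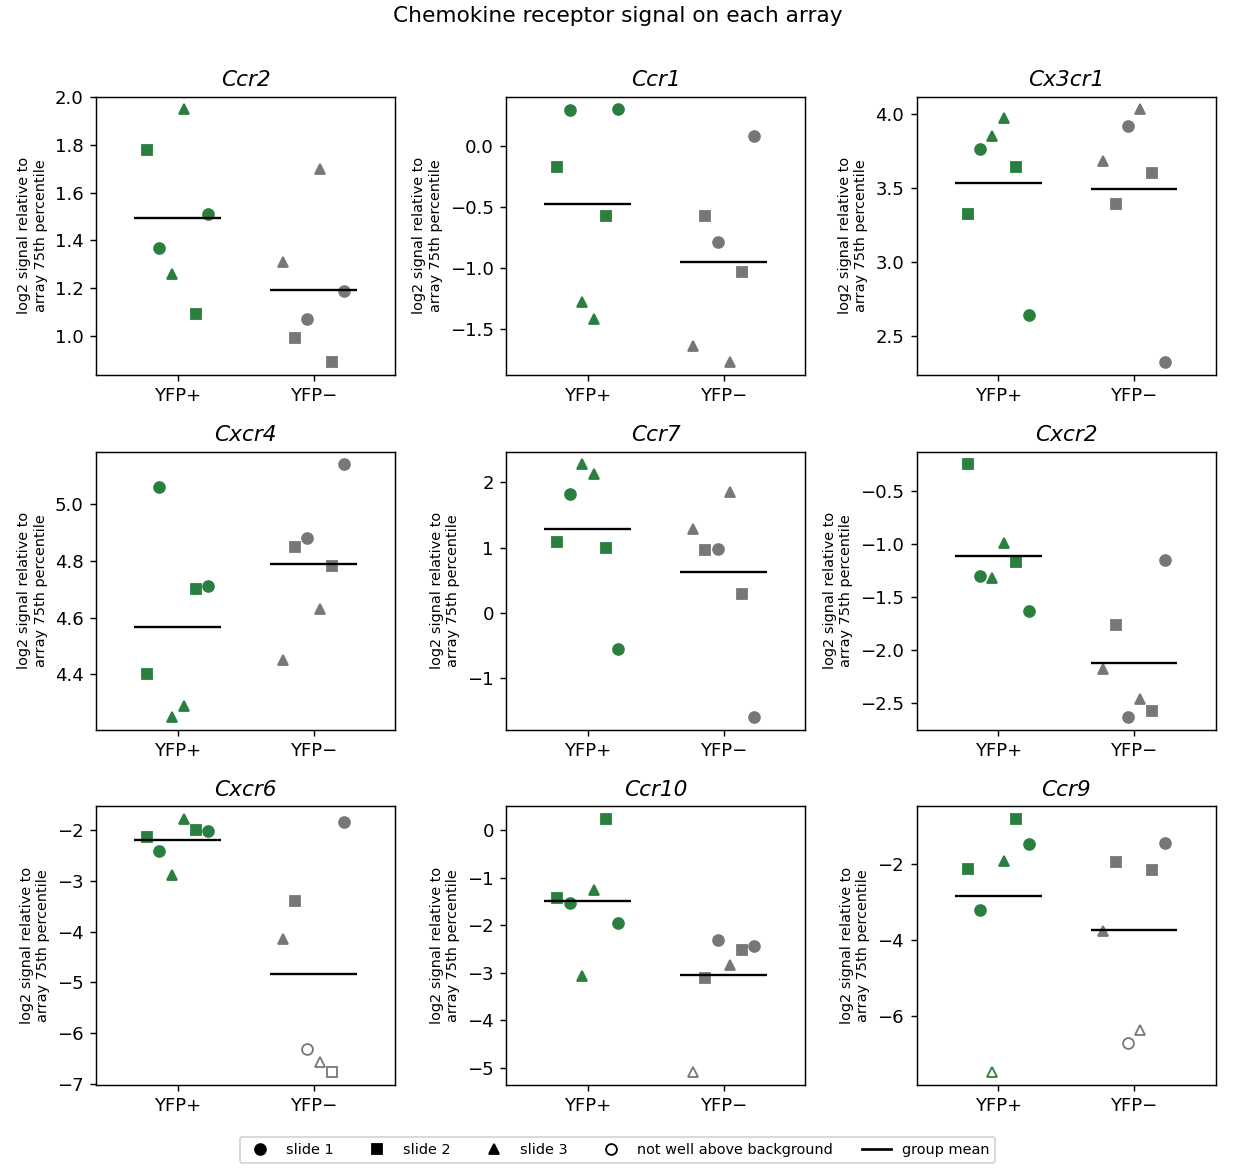
Log2 signal relative to the array's 75th percentile (y axis) of the 9 receptors on the 6 YFP+ arrays (green, left) and the 6 YFP− arrays (grey, right). Symbol shapes give the slide, open symbols are signals not well above background and horizontal lines are group means. The groups overlap in every panel, and open symbols occur only for Cxcr6, Ccr10 and Ccr9.

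Ccr2, the receptor of Ccl2 and its relatives, was at 1.09, 1.44 and 1.95 (lowest, median and highest) in YFP+ arrays and at 0.89, 1.13 and 1.70 in YFP− arrays. The ranges overlapped broadly, and 2 YFP+ arrays lay above the highest YFP− array. Ccr2 averaged 1.49 ± 0.32 in YFP+ cells and 1.19 ± 0.29 in YFP− cells (SD, n = 6 each). The limma difference was 0.30 (SE 0.21, interval −0.15 to 0.75, adjusted p = 0.66). An excess of up to 1.69-fold in YFP+ cells, or a shortfall to 0.903 of the YFP− signal, lies within that interval. Its within-group spread was at the 12.6 percentile of all features.

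Ccr1, which binds inflammatory chemokines such as Ccl3 and Ccl5, was at −1.42, −0.37 and 0.30 in YFP+ arrays and at −1.77, −0.91 and 0.08 in YFP− arrays. Its arrays lined up by slide more than by group. The 4 arrays of slide 3 lay between −1.77 and −1.28, below the 4 of slide 2 (−1.03 to −0.17) and the 4 of slide 1 (−0.79 to 0.30). Slide went with 88.0% of the within-group variance of Ccr1, beside a median of 38.7% over all features, and Ccr1 was the single receptor called in an F test of slide that limma ran across all features (adjusted p = 0.0036), a test that called 20.6% of them. The F test was chosen after the values had been seen. Between the groups Ccr1 differed by 0.48 (SE 0.40, interval −0.38 to 1.34, limma adjusted p = 0.75). With slide as a block the difference was again 0.48, with an SE of 0.18 (limma unadjusted p = 0.021, adjusted p = 0.20). The difference was positive on each slide, at 0.65, 0.43 and 0.36 on slides 1, 2 and 3, with 2 arrays per group on each. Each sample lay on 1 slide, so an effect of slide and a difference between the samples it held cannot be told apart.

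Cx3cr1, the receptor of fractalkine, was at 2.64, 3.70 and 3.97 in YFP+ arrays and at 2.32, 3.64 and 4.03 in YFP− arrays on probe 1. Replicate 6 was the lowest array of both groups, and the other arrays of both groups lay close together. The means were 3.53 ± 0.49 in YFP+ cells and 3.49 ± 0.62 in YFP− cells (SD, n = 6 each), a difference of 0.04 (SE 0.32, interval −0.65 to 0.73, limma adjusted p = 0.98). Probe 2, which shares most of its bases with probe 1, gave 0.01 (SE 0.33). Probe 3, which overlaps neither, gave 0.56 (SE 0.43, limma adjusted p = 0.72), with 4 YFP+ arrays above the highest YFP− array. The difference between the probes' estimates was not tested.

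Cxcr4, the receptor of Cxcl12, was at 4.25, 4.55 and 5.06 in YFP+ arrays and at 4.45, 4.82 and 5.14 in YFP− arrays. The ranges overlapped, with no YFP+ array above the highest YFP− array (0 of 6) and 0 YFP− arrays below the lowest YFP+ array. Cxcr4 averaged 4.57 ± 0.31 in YFP+ cells and 4.79 ± 0.23 in YFP− cells (SD, n = 6 each). The difference was −0.22 (SE 0.19, interval −0.64 to 0.20, limma adjusted p = 0.77), and its sign turned with quantile normalization (0.02) and with array brightness as a covariate (0.08). Brightness differed between the groups, so the fit with that covariate separates brightness and group poorly (SE 0.34 for Cxcr4). Slide went with 77.4% of the within-group variance of Cxcr4, with an adjusted p of 0.072 in the limma F test of slide. With slide as a block the SE of the difference was 0.13 (limma adjusted p = 0.41). Within the slides the difference was −0.12, −0.27 and −0.27.

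Ccr7, the receptor of Ccl19 and Ccl21 on cells bound for lymph nodes, was at −0.55, 1.46 and 2.28 in YFP+ arrays and at −1.59, 0.97 and 1.86 in YFP− arrays. Replicate 6 was the lowest array of both groups here too, while it was the highest array of both groups for Ccr1. Ccr7 averaged 1.296 ± 1.05 in YFP+ cells and 0.63 ± 1.20 in YFP− cells (SD, n = 6 each). The difference was 0.66 (SE 0.60, interval −0.64 to 1.97, limma adjusted p = 0.78). It was 0.22 without YFP− replicate 6 and 1.03 without YFP+ replicate 6. Of the dendritic cell markers, which include Flt3, Cd209a and Batf3, 10 were tested and 0 called, with a median difference of 0.28 and summed signals of 26.4 to 42.9 in YFP+ arrays and 25.1 to 35.6 in YFP− arrays. Ccl17, the marker with the brightest probe (mean 4.18 in YFP+ and 4.14 in YFP− cells), gave the largest share of these sums. The part of dendritic cells in the Ccr7 signal was not tested.

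Cxcr2, the receptor of Cxcl1, Cxcl2 and Cxcl5, was at −1.63, −1.23 and −0.25 in YFP+ arrays and at −2.63, −2.32 and −1.15 in YFP− arrays. Of the YFP− arrays 5 of 6 lay below the lowest YFP+ array, and YFP− replicate 6 lay inside the YFP+ range. The means were −1.11 ± 0.47 in YFP+ cells and −2.13 ± 0.57 in YFP− cells (SD, n = 6 each), which is 2.02-fold more signal in YFP+ cells. The difference was 1.02 (SE 0.30, interval 0.36 to 1.67, unadjusted p = 0.0055, limma adjusted p = 0.15) and did not pass the test. It was positive on each slide, at 0.43, 1.46 and 1.16, and slide went with 7.28% of its within-group variance. With single arrays left out the difference stayed between 0.84 and 1.21, with adjusted p of 0.051 to 0.29.

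Of 12 neutrophil markers 9 were tested and 0 were called, 7 with negative and 2 with positive differences, with a median of −1.60. Their summed signals were 29.9 to 49.2 in YFP+ arrays and 30.4 to 67.4 in YFP− arrays, where YFP− replicate 6, the YFP− array with the highest Cxcr2 signal, also had the highest sum. Csf3r, the marker with the brightest probe (mean 4.97 in YFP+ and 5.27 in YFP− cells), gave the largest share of that sum. The members with the smallest p were S100a9 (−1.67, adjusted p = 0.076), Ltf (−1.65, adjusted p = 0.072) and Mpo (−3.37, adjusted p = 0.11), which encode granule and cytoplasmic proteins of neutrophils and their precursors. Cxcr1, the other neutrophil receptor of this family, was well above background on 0 YFP+ arrays and 1 YFP− array and was not tested.

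Cxcr6, the receptor of the membrane-bound chemokine Cxcl16, was well above background on every YFP+ array (6 of 6) and on 3 of 6 YFP− arrays. On probe 1 the YFP+ arrays were at −2.13, −2.41, −2.88, −1.78, −1.99 and −2.01 in replicates 1 to 6. The YFP− arrays were at −4.15, −3.39, −6.31, −6.58, −6.77 and −1.83. The YFP+ arrays lay close together, YFP− replicates 1, 2 and 6 were the ones above background in their group, and YFP− replicate 6 was as high as the YFP+ arrays. For the other YFP− replicates, 3, 4 and 5, the processed signal is a surrogate value that the scanner software puts in place of a signal at background, so their distance from the rest has no measured size.

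The Cxcr6 means were −2.20 ± 0.40 in YFP+ cells and −4.84 ± 2.03 in YFP− cells (SD, n = 6 each). The difference was 2.64 (SE 0.77, interval 0.96 to 4.32, unadjusted p = 0.0049, limma adjusted p = 0.14) and did not pass the test. Without YFP− replicate 6 it was 3.24 with a limma adjusted p of 0.022, past the threshold, in a comparison where 1.62% of all features were called and 0.255% were called higher. With normexp background correction, which raises signals near background, it was 0.97. The differences within slides 1, 2 and 3 were 1.86, 3.02 and 3.03.

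Cxcr6 probe 2, which overlaps probe 1, showed the same arrangement of arrays. It was at −3.52, −3.31 and −2.89 (lowest, median and highest) in YFP+ arrays, all 6 well above background, and at −6.34, −5.56 and −2.49 in YFP− arrays, of which 1 was well above background. That array was replicate 6 again. The difference was 1.89 (SE 0.55, interval 0.68 to 3.09, limma adjusted p = 0.15 in the fit with every probe on its own).

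**Figure D2:**
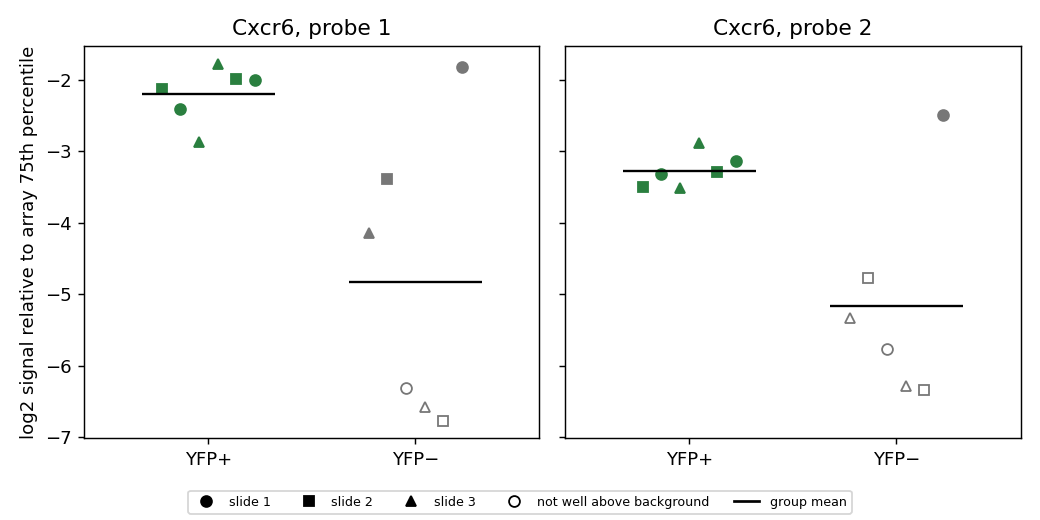
Log2 signal relative to the array's 75th percentile (y axis) for the overlapping Cxcr6 probes 1 (left) and 2 (right) on YFP+ arrays (green) and YFP− arrays (grey). Shapes give the slide, open symbols are signals not well above background and lines are group means. YFP− replicate 6 reads −1.83 and −2.49 and lies with or above the YFP+ arrays, and the other YFP− arrays lie below all of them.

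T and NK cells are among the cells best known for Cxcr6. Of 16 markers of these cells 10 were tested and 0 called, with a median difference of 0.24, and Klrb1c was well above background on 0 arrays. The smallest p belonged to Cd3e (0.71, adjusted p = 0.63), Nkg7 (−0.58, adjusted p = 0.71) and Lck (0.52, adjusted p = 0.72). The summed signals of the 16 markers were 3.89 to 10.3 times the 75th percentile in YFP+ arrays and 4.00 to 7.70 times in YFP− arrays, and YFP− replicate 6 had 5.50. Prf1 and Cd4 had the brightest probes, with means of 1.29 and 0.89 in YFP+ cells and 1.24 and 0.66 in YFP− cells. Cd3e was at −2.13 and −2.84, so the sums reflect Cd3e little. The part of such cells, or of array brightness, in the Cxcr6 signal was not tested. Cxcl16 itself was at 3.37 in YFP+ cells and 3.44 in YFP− cells on average, a difference of −0.08 (SE 0.24, limma adjusted p = 0.95).

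Ccr10, the receptor of Ccl27 and Ccl28, was at −1.43, −1.53, −3.06, −1.25, 0.23 and −1.96 in YFP+ replicates 1 to 6. The YFP− replicates were at −5.08, −3.10, −2.31, −2.83, −2.53 and −2.43. Of the YFP+ arrays 5 of 6 lay above the highest YFP− array and YFP+ replicate 3 lay among the YFP− arrays. The lowest, YFP− replicate 1, was the single array of 12 on which Ccr10 was not well above background. The means were −1.50 ± 1.07 in YFP+ cells and −3.05 ± 1.04 in YFP− cells (SD, n = 6 each), and the difference was 1.55 (SE 0.56, interval 0.32 to 2.77, unadjusted p = 0.017, limma adjusted p = 0.28). It did not pass the test. The within-slide differences were 0.63, 2.22 and 1.80. The estimate was 0.88 with normexp background correction and 3.63 with array brightness as a covariate.

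Ccr10 is known from plasma cells and skin-homing lymphocytes. Of 13 markers of B and plasma cells 11 were tested and 0 called, 8 with positive and 3 with negative differences and a median of 0.76. Jchain, the joining chain of secreted antibodies, had the largest value among those with the smallest p (4.78, SE 1.47, adjusted p = 0.17). It was well above background on 6 YFP+ and 3 YFP− arrays, so the size of its difference rests on signals near background. The others were Cd79b (0.76, adjusted p = 0.19) and Sdc1 (−1.13, adjusted p = 0.17). The summed signals were 10.9 to 39.4 in YFP+ arrays and 9.38 to 16.5 in YFP− arrays. In YFP+ replicates 1 to 6 the sums were 22.0, 13.4, 23.6, 39.4, 28.6 and 10.9. In YFP− replicates 1 to 6 they were 14.8, 13.5, 9.38, 16.5, 14.1 and 9.63. Xbp1, the marker with the brightest probe (mean 3.20 in YFP+ and 2.96 in YFP− cells), gave the largest share of the YFP− sums. The part of B and plasma cells in the Ccr10 signal was not tested.

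Ccr9, the receptor of Ccl25 on thymocytes, gut-homing lymphocytes and plasmacytoid dendritic cells, was the most scattered of the 9, with a within-group spread at the 99.3 percentile of all features. Probe 1 was at −7.46, −2.02 and −0.82 in YFP+ arrays (5 of 6 well above background) and at −6.69, −2.96 and −1.44 in YFP− arrays (4 of 6). The low values came from YFP+ replicate 3 and from YFP− replicates 3 and 4, and the remaining arrays of both groups overlapped. On those low arrays Ccr9 was not well above background, and in replicate 3 of both groups its signal was a surrogate value. The spread of Ccr9 and the width of its interval thus rest on signals near background. The means were −2.83 ± 2.40 in YFP+ cells and −3.73 ± 2.30 in YFP− cells (SD, n = 6 each). The difference was 0.90 (SE 1.23, interval −1.78 to 3.57, limma adjusted p = 0.87), an interval that spans 0.292-fold to 11.9-fold. It was 1.82 without YFP+ replicate 3, 0.30 without YFP− replicate 3 and 0.25 with normexp background correction. Probe 2 does not overlap probe 1, was well above background on 0 of 12 arrays and was not tested. Plasmacytoid dendritic cell markers, with Klk1, Cox6a2 and Ly6d at the smallest p, gave 0 calls among 7 tested genes, a median of −0.03 and sums of 16.5 to 55.8 in YFP+ arrays and 21.7 to 49.5 in YFP− arrays. Siglech, the marker with the brightest probe (mean 4.32 in YFP+ and 4.73 in YFP− cells), gave the largest share of these sums.

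**Figure D3:**
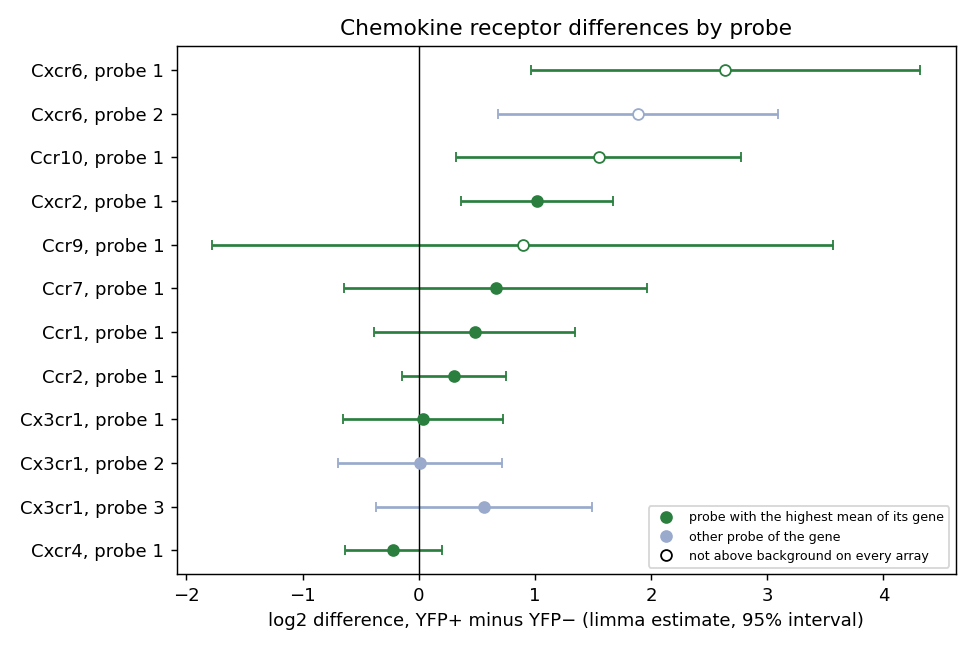
Limma estimates of the log2 difference, YFP+ minus YFP− (x axis), with 95% intervals for the 12 tested probes of the 9 receptors. Green marks the probe with the highest mean of its gene, blue the other probes and open symbols those not above background on every array. The intervals of Cxcr6, Ccr10 and Cxcr2 lie above 0 before adjustment, and those of the other receptors include 0.

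Of the 9 receptor genes 5 are on chromosome 9, and 4 of them, Ccr9, Cxcr6, Ccr1 and Ccr2, stand in one run of receptor genes. Measured from Ccr9 probe 1, Cxcr6 is 30.4 kb away, Ccr1 187.5 kb and Ccr2 332.6 kb, with Xcr1, Ccr1l1 and Ccr3 between them. The estimates of the 4 receptors were positive, and those of the genes tested between them were negative, none past the threshold, though Ccr1l1 turned positive on slide 3 alone (0.11) and with array brightness as a covariate (1.0). Ccr1l1, a close relative of Ccr1, was at −0.25 (SE 0.38, limma adjusted p = 0.89). Ccr3, an eosinophil receptor, was at −1.07 (SE 1.76, limma adjusted p = 0.90). It was well above background on 7 of 12 arrays, so the size of its difference rests on signals near background. Of the mast cell, basophil and eosinophil markers 3 of 7 tested genes, Mcpt8, Tpsb2 and Il5ra, were called lower. The others, Kit (0.71), Siglecf (0.15), Prg2 (−0.15) and Mcpt4 (−3.24), were not called, so 2 differences were positive and 5 negative. The sums were 2.75 to 7.68 in YFP+ arrays and 6.91 to 23.2 in YFP− arrays. The part of these cells in the Ccr3 signal was not tested. Xcr1, the receptor of cross-presenting dendritic cells, was well above background on 5 of 12 arrays and was not tested. Cx3cr1 lies apart, at −3732.5 kb from Ccr9 probe 1. These positions are of the array's mm9 annotation.

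**Figure D4:**
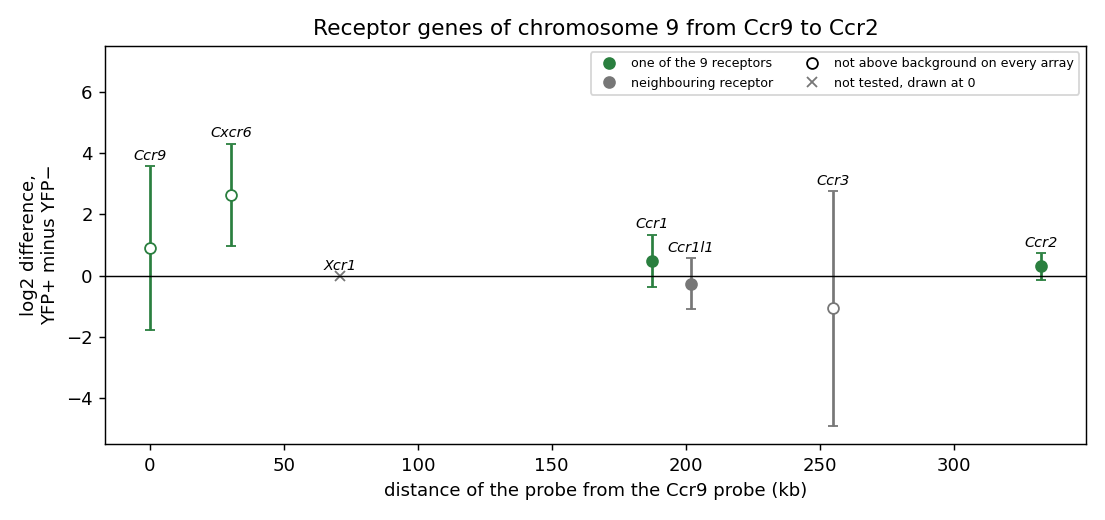
Log2 difference, YFP+ minus YFP−, with 95% interval (y axis) of receptor genes on chromosome 9 from Ccr9 to Ccr2 against the distance of their probe from Ccr9 probe 1 in kilobases (x axis). Green marks the 9 receptors followed here, grey the genes between them, open symbols probes not above background on every array, and the cross a gene not tested. Estimates go from −1.07 for Ccr3 to 2.64 for Cxcr6.

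Of 23 ligands of these receptors 21 were tested, 1 was lower in YFP+ cells, 0 were higher, and 17 had negative and 4 positive differences (median −0.34, beside −0.03 over all features). Cxcl5, a Cxcr2 ligand known from epithelial cells, was the one that fell, to −4.89 ± 1.29 in YFP+ cells, against −1.60 ± 1.26 in YFP− cells (SD, n = 6 each), by 3.30 on the log2 scale (SE 0.68, limma adjusted p = 0.028). It was well above background on 3 YFP+ arrays and on 6 YFP− arrays, so the size of the difference rests on signals near background. The difference was −1.91 with normexp background correction, and −1.72, −2.83 and −5.35 within slides 1, 2 and 3. The ranges, −6.27 to −3.17 in YFP+ arrays and −3.85 to 0.04 in YFP− arrays, overlapped. Cxcl5 stayed past the threshold in 11 of 16 other settings and with any of 4 arrays left out (YFP+ replicates 1 and 2, YFP− replicates 4 and 6) and missed it with any of the other 8 left out (differences of −3.32 to −2.97, adjusted p of 0.054 to 0.069). Epithelial and fibroblast markers were lower in the same YFP+ arrays, and their part in this was not tested.

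Ligands without a call included Ccl19, which binds Ccr7 (−0.79, SE 0.23, limma adjusted p = 0.13), and Ccl27a, which binds Ccr10 (−0.78, SE 0.33, limma adjusted p = 0.37). Ccl19 passed the threshold with slide as a block (−0.79, limma adjusted p = 0.015) and was at −0.10 with array brightness as a covariate (limma adjusted p = 0.91). Averaged over the probes of each gene, Ccl19 was at −0.44 (limma adjusted p = 0.74) and Ccl27a at −0.10 (limma adjusted p = 0.97). Ccl28, the other Ccr10 ligand, was well above background on 0 arrays, and 1 of the 23 was not found by name on the array. Of the other chemokine receptors 9 of 16 were tested and 0 called, with a median difference of 0.10. Ccr6 differed by 1.53 (SE 0.96, limma adjusted p = 0.62), Cxcr3 by 1.45 (SE 0.87, limma adjusted p = 0.60). In YFP− cells Ccr6 was well above background on 4 arrays and Cxcr3 on 5, so both sizes rest partly on signals near background. Ccr6 was at 0.70 without YFP− replicate 6, and Cxcr3 at 0.71 without YFP− replicate 3. Ccr4 and Ackr2 were well above background on 0 arrays.

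Behind the receptors, 30 genes of G protein signalling, desensitisation and migration were all tested (30 of 30), with 1 lower in YFP+ cells and 0 higher, 19 positive and 11 negative differences and a median of 0.15. Rgs16, which speeds the switching-off of G protein alpha subunits, fell to −3.36 ± 0.48 in YFP+ cells, against −2.23 ± 0.25 in YFP− cells (SD, n = 6 each), by 1.13 on the log2 scale (SE 0.24, limma adjusted p = 0.032). All 6 YFP+ arrays lay between −3.79 and −2.63 and all 6 YFP− arrays between −2.57 and −1.89, so the groups did not overlap. The call was kept in 6 of 17 other settings, and among those that missed it were quantile normalization (−0.95, adjusted p = 0.076), normexp background correction (−0.78, adjusted p = 0.0503) and array brightness as a covariate (−1.22, adjusted p = 0.36). It was also missed with any of 8 arrays left out (YFP+ replicates 1, 3, 4 and 5, YFP− replicates 2, 4, 5 and 6), with differences of −1.16 to −1.05 and adjusted p of 0.0503 to 0.078. Arrb2, an arrestin that takes receptors out of signalling, differed by 0.45 (SE 0.18, limma adjusted p = 0.35), and Gnai3, an inhibitory alpha subunit, by −0.40 (SE 0.18, limma adjusted p = 0.42).

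**Figure D5:**
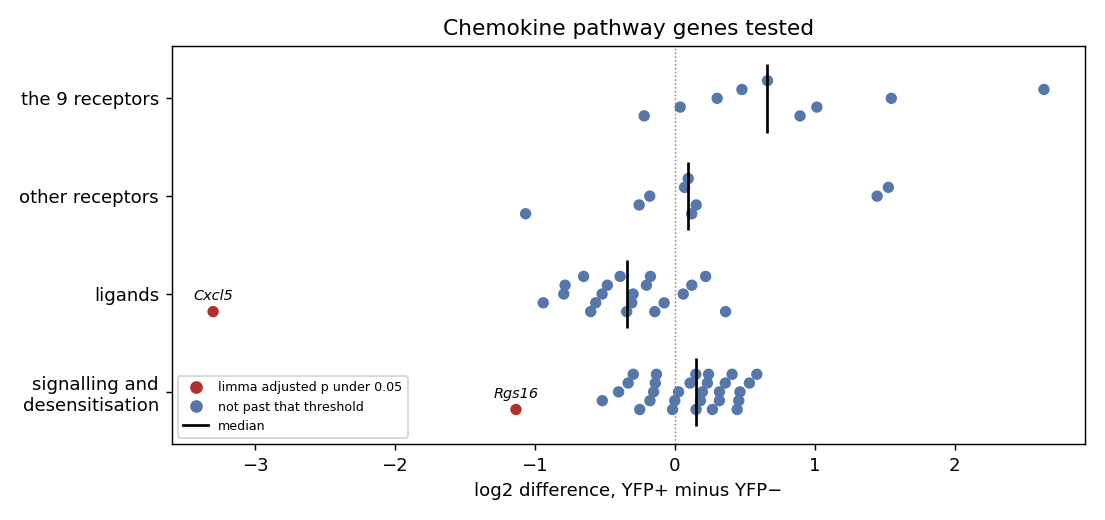
Log2 differences, YFP+ minus YFP− (x axis), of the 9 receptors, 9 other tested chemokine receptors, 21 ligands and 30 signalling genes, 1 point a gene, with vertical lines at each list's median. Red marks genes with a limma adjusted p under 0.05, which are Cxcl5 (−3.30) and Rgs16 (−1.13), both lower in YFP+ cells.

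For the 6 receptors above background on all arrays, the 2 genes with the most similar pattern over the 12 arrays were taken from 11345 named features, by Pearson r and as a description. Arrays share slide, brightness and group, so these correlations carry no p. Ccr1 went with Ptch1 (0.94) and Zyx (0.94), and Ccr2 with Eef2 (0.97) and Setd1b (0.87). Ccr7 went with Sema4d (0.97) and Ranbp1 (0.97), Cx3cr1 with Cd40 (0.96) and Gpr65 (0.94), Cxcr2 with Csnk1g1 (0.89) and Mob3c (0.87), and Cxcr4 with Klf6 (0.93) and Wfdc17 (0.91). None of these 12 genes passed the test between YFP+ and YFP− cells, and the smallest adjusted p was that of Csnk1g1 (0.11).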

How the data were processed

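Gene expression was measured in 6 YFP+ and 6 YFP− samples. The deposited intensity values are red processed signals from Agilent Feature Extraction 11.5.1.1, per the file headers and the submitters' processing notes. The authors also deposited a log2 value table, whose columns all have a median of 8.83 and a Spearman correlation of at least 0.9999 with the processed signal. It served as an alternative, and 0 of its columns were left unused.

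Control spots (1377) and outlier spots were dropped, repeat spots (10 each for 399 probes) were averaged, and of 39429 probes 35 lacked a value on some array. No spot was saturated (0). Log2 signals were reduced by each array's 75th percentile. A minimum of 6 of the 12 arrays well above background left 25434 probes, with 1 probe a gene, the one with the highest mean. RefSeq accessions named 28330 probes (1403 names changed), and 11099 kept the array's name. limma 3.58.1 (lmFit, eBayes) in R 4.3.3 tested 20370 features with group as the only factor and Benjamini-Hochberg adjustment. The number of arrays limits the precision. Tables and exact tests were made with scipy 1.17.1 and pandas 2.3.3 in Python 3.11.15, and random blocks used statmod 1.5.0.

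The receptors and lists were chosen with earlier results of these data known. All 9 receptors are named. From each pathway list the text names the genes past the threshold and those with the smallest p, up to 3 in all, and 3 from each marker list. Further marker genes are named where the reading of a list turns on them. Alternatives were tumour number or slide as a block, normexp (offset 50), quantile normalization, median centring, the deposited table, other filters, every probe alone, the mean of probes, an intensity trend with robust variances, array brightness as a covariate, single slides, and leaving out each array. The other mice of the design text were not analysed here.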

Additional observations from a re-analysis of the deposited data

Results flagged for a closer look

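Of 28 sets of 6 arrays (each receptor probe and the array brightness, in each group) 4 held an array that lay far from its 5 companions by Dixon's criterion, which chance alone gives in about 1 of 20. Ccr9 probe 1 was lowest at −7.46 in YFP+ replicate 3, where the signal was not above background. Ccr9 probe 2 was highest at −5.17 in YFP− replicate 3, with no array above background (0 of 12). Ccr10 was lowest at −5.08 in YFP− replicate 1, the array where it was not above background. Cx3cr1 probe 3 was lowest at −1.51 in YFP− replicate 6, which was above background and was also the lowest YFP− array on probe 1.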

How the results depend on the processing

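Over 29 other settings 258 values for the 9 receptors were obtained, of which 249 kept their direction and their side of the threshold. The cause of the changes was not tested. Cx3cr1 turned sign on slide 2 alone (−0.01) and in 4 of 12 fits without 1 array (YFP+ replicates 2, 3 and 4 and YFP− replicate 6), with a range of −0.19 to 0.22. Cxcr4 was 0.02 with quantile normalization, 0.02 in the deposited table and 0.08 with array brightness as a covariate. Cxcr6 without YFP− replicate 6 was 3.24 (adjusted p = 0.022), so receptors called went from 0 to 1 in fits without 1 array, where Cxcr6 ranged from 2.25 to 3.24 (adjusted p of 0.022 to 0.27). Ccr9, Ccr10 and Cxcr6 had no value with the filter on all 12 arrays. Of the pathway genes without a call, Ccr6 was −0.63 on slide 3 alone, Ccr1l1 1.0 with brightness as a covariate and 0.11 on slide 3 alone, and Ccl27a 0.29 with brightness as a covariate, while Ccl19 (−0.79) gained a call with slide as a block and with slide and a random tumour block (adjusted p = 0.015 in both).

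Of all features 356 were called, against 556 with slide as a block, 558 with slide and a random tumour block, 541 with normexp, 233 with the filter on all 12 arrays, 196 without slide 3, 12 with brightness as a covariate and 0 on each slide alone, where 4 arrays were fitted. Without 1 array the count ranged from 266 to 383. Median centring called 346, with 33.5% higher in YFP+ cells in place of 19.1%, and put the median of all features at 0.18 in place of −0.03. Brightness differed by 1013 units, or 907 to 1158 without 1 array, and by 82.9 as a median. Because brightness went with group, the fit with it as a covariate separates them poorly, and the SE of Ccr7 rose from 0.60 to 1.14. Lost calls and turned signs in that fit are therefore hard to read. The tumour number as a fixed replicate block called 296 features and 0 receptors. Under it Rgs16 was at −1.13 with an adjusted p of 0.060, Cxcl5 kept its call (adjusted p = 0.026), and Ccr7 was at 0.66 with an SE of 0.24 in place of 0.60 (adjusted p = 0.33). Same-numbered samples deviated together with correlations of −0.30, 0.11, −0.13, 0.37, 0.19 and 0.28, beside a mean of −0.02 for different numbers. Since 2 of the 6 were not above 0.1 and the labels do not say that equal numbers mean the same tumour, pairing was neither taken as given nor excluded. Closest to their own number were 3 of 6 YFP+ arrays. Replicates 4, 5 and 6, with correlations of 0.37, 0.19 and 0.28, had both arrays on the same slide. Replicates 1, 2 and 3 had theirs on different slides, so a shared number and a shared slide cannot be told apart. Signal near background limits Ccr9, Ccr10 and Cxcr6.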
